A study of Oryza sativa Japonica Group with 4 samples.

Results

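Calcium kinases, sensors and pumps of the rice lamina joint, where the leaf blade bends away from its sheath, were compared between mutant and wild type. Members were the genes whose symbol or RefSeq synonym is a number of the families CPK or CDPK, CIPK, CBL, CML, CAM or ACA, and they were read through probe sets paired with exactly 1 gene. The rule found 98 genes, of which 82 had a probe set, on 104 of the 57258 probe sets of the array that are not controls. These were 20 of 24 CPK kinases, 31 of 39 CIPK kinases and CBL sensors, 26 of 29 calmodulins and calmodulin-like proteins, and 5 of 6 ACA pumps.

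Lamina joint RNA, taken at the tillering stage, was measured on Affymetrix Rice Genome Arrays, which have 1 colour and read each transcript through 1 or several probe sets. The ila1 group (2 arrays) is a rice mutant with a wider leaf angle whose gene, as known from the study, codes for a MAP kinase kinase kinase of the Raf type, and the ZH11 group (2 arrays) is the wild type Zhonghua11. The labels call both groups Japonica and the arrays of a group biological replicates, but give neither the allele, nor the age in days, nor how many plants were pooled, and p-values therefore reflect only how far these samples spread. The comparison asks which calcium signalling transcripts differ in level between mutant and wild-type lamina joints.

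Plant cells use brief rises of free calcium in the cytosol as a signal of stress, pathogens, touch and hormones. Calmodulins, calmodulin-like proteins (CML) and calcineurin B-like proteins (CBL) bind the ion through EF-hands, and CBL proteins pass it on by binding CIPK kinases. Calcium-dependent kinases (CPK, also CDPK) carry the EF-hands and the kinase in 1 protein, and autoinhibited calcium ATPases (ACA), held back by their own end until calmodulin binds, pump the ion out of the cytosol again.

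Levels are given as signal, the deposited linear intensity of a probe set on an array. The test was made on log2 of the signal plus 16, so fold changes understate the change of dim genes, and a call is a limma adjusted p under 0.05 over all 34355 probe sets tested. A gene with several probe sets is represented by the one of highest mean signal. Of the 82 genes with a probe set, 75 passed the filter on low values and were tested. The other 7 (CPK2, CPK22, CPK29, CIPK30, CBL5, CML28 and ACA1) had signals between 12.5 and 38.2 on the 4 arrays. Another 16 member genes have no probe set paired with them alone and were not analysed here.

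Median signal of the arrays was 53.6 and 53.6 for ila1 and 56.0 and 57.9 for ZH11. Of the 2 liguleless genes looked up to check the tissue after values were seen, LG1, which is needed to form the lamina joint, had signals of 318 and 234 on the ila1 arrays, against 312 and 339.8 on the ZH11 arrays, and LG2 was between 20.7 and 23.1 on the 4 arrays. Among marker lists, the summed signal of 15 heat stress genes was 13883 and 16786 in ila1, against 27654 and 23810 in ZH11, with 3 of 13 tested called lower. That of 6 secondary wall genes was 2549.6 and 2559.5 in ila1, against 3498 and 3679.8 in ZH11, with 2 of 6 called lower. Over all tested genes 12.6% were called lower and 5.68% higher. For 7 photosynthesis genes the sums were 15415 and 23987 in ila1, against 21636 and 22761 in ZH11, for 13 cell division genes 2306 and 1977, against 2009 and 1943, with 1 of 6 tested called higher, and for 23 ribosomal protein genes 83926 and 83387, against 79061 and 79970. For the 6 genes whose symbols met the cuticle patterns, which include a ceramidase and so are no clean cuticle list, the sums were 8293 and 9960 in ila1, against 9524 and 9664 in ZH11. No marker with a probe set was at 1, the lowest signal listed, on all arrays. Of the 13 cell division genes, 6 passed the filter on low values. The part of these cell type and stress markers in the results was not tested.

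Calcium signalling genes were lower in the ila1 lamina joint more often than they were higher. Of 75 tested member genes 25 fell and 6 rose in ila1, while 12.6% of all 15633 tested genes were called lower and 5.68% higher. The largest falls were those of the pump ACA7 and the kinase CPK21, and the largest rise was that of the kinase CIPK18. The members' median log2 fold change was -0.38, against -0.02 over all tested genes. In bulk tissue, fewer cells of a type and less RNA per cell cannot be told apart. Both ila1 arrays lay below both ZH11 arrays for 43 of the 75 genes (background 35.6%) and above both for 14 (background 32.6%), and the groups overlapped for 18. Across the 4 array pairs that set ila1 against ZH11, 12 genes were lower by 2-fold or more every time (background 6.22%) and 1 was higher by as much (background 0.96%). In either direction 31 of 75 members were called, beside 18.3% of all genes. Quantile normalization shifted the median of all tested genes by 0.15 and scaling to hybridization controls shifted it by 0.21. Set against that of all genes, the members' median was -0.36 on the deposited values, -0.33 under quantile normalization and -0.35 under scaling to those controls. The split of member calls was 21 lower and 9 higher after quantile normalization, against 1587 lower and 1753 higher among all genes there.

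Member calls, like those over all genes, rest on the ZH11 pair. A fit lacking either ZH11 array takes its spread from the ila1 pair, and calls over all genes nearly vanished there too. Among the members, limma's counts of calls dropped to none without ZH11 replicate 1 and to ACA7 alone without ZH11 replicate 2. Without ila1 replicate 1 the counts were 37 lower and 10 higher, beside 23.1% and 15.9% of all genes, and without ila1 replicate 2 they were 39 and 13, beside 28.5% and 22.4%. All 31 called members kept their direction in each of these 4 fits. This outcome was fixed in advance, because the groups do not overlap in any called member. The ila1 arrays differed from each other by a median absolute log2 value of 0.28 over the members, against 0.09 between the ZH11 arrays, and over all tested genes these values were 0.21 and 0.09.

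**Figure D1:**
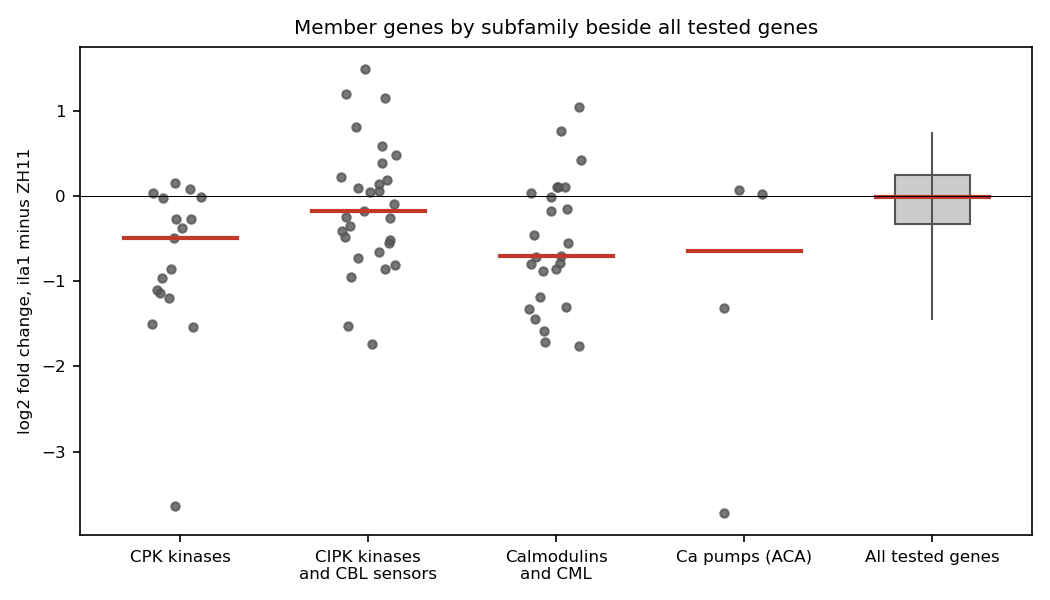
Each point is the log2 fold change (ila1 minus ZH11) of 1 tested member gene, by subfamily, and the red bars are medians. The box at the right spans the 25th to 75th percentile of all 15633 tested genes and its line the 5th to 95th. The CPK and calmodulin-like medians (-0.50 and -0.70) lie below the all-gene median (-0.02), and the CIPK-CBL genes spread to both sides.

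Calmodulin-like genes fell more often than they rose. The 3 calmodulin genes had log2 fold changes between 0.04 and 0.11 without a call, while 11 of 22 tested CML genes fell and 2 rose, beside 12.6% and 5.68% of all genes. CML27, CML20 and CML24 had the largest falls. Over the 25 tested calmodulin and CML genes the median was -0.70 in log2 fold change, which is -0.68 relative to all genes. It was -0.42 without ila1 replicate 1, and every one of these calls was lost when either ZH11 array was left out. Without ila1 replicate 1 limma called 14 lower and 2 higher, where all genes gave 23.1% and 15.9%. Without ila1 replicate 2 it called 16 and 3, where all genes gave 28.5% and 22.4%, so the higher calls of these 25 genes did not exceed the all-gene share in either fit.

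CAM1, CAM2 and CAM3 encode calmodulins of almost the same protein sequence. Their probe sets are not of the types marked as matching several transcripts or cross-hybridising. Whether they read each other's transcripts was not tested. CAM1 had signals of 2523 and 2357 on the ila1 arrays, against 2404 and 2349 on the ZH11 arrays, and the 2 groups overlapped (log2 fold change 0.04, 95% interval -0.21 to 0.28). CAM2 read 1932 and 1898 in ila1 and 1768 and 1784 in ZH11, both ila1 arrays slightly above both ZH11 arrays (log2 fold change 0.11, 95% interval -0.14 to 0.35). CAM3 read 3390.2 and 3196 in ila1 and 3016 and 3073 in ZH11, again with the ila1 arrays slightly above (log2 fold change 0.11, 95% interval -0.11 to 0.34). Limma called 0 of the 3, and 0 had an unadjusted p under 0.05. The intervals leave room for small differences and not for falls of the size seen in the called CML genes.

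CML proteins have EF-hands like calmodulin but no other known domain. CML27 read 996 and 2247 on the ila1 arrays, against 5075 and 5139 on the ZH11 arrays (log2 fold change -1.76 ± 0.38 SE, limma adjusted p = 0.0437). The ila1 arrays were far apart but both below ZH11, and its dimmer probe set, at a log2 fold change of -0.76, was not called. CML20 had signals of 274 and 358 on the ila1 arrays, against 1072 and 1050.1 on the ZH11 arrays (log2 fold change -1.71 ± 0.16 SE, limma adjusted p = 0.00614). CML24 was dim in the mutant, at 42.8 and 56 on the ila1 arrays, against 185 and 173 on the ZH11 arrays (log2 fold change -1.58 ± 0.14 SE, limma adjusted p = 0.00562). CML32 was at 61.4 and 53.7 on the ila1 arrays, against 164 and 172 on the ZH11 arrays (log2 fold change -1.32 ± 0.12 SE, limma adjusted p = 0.00552). The groups did not come near each other in any of these 4 genes. CML5, read by a probe set that can match several transcripts, had 72.9 and 41 in ila1 and 192 and 164 in ZH11 (log2 fold change -1.44 ± 0.24 SE, limma adjusted p = 0.0234), and its other probe set was called lower too (log2 fold change -0.79). CML14 had signals of 226 and 361 on the ila1 arrays, against 794 and 676 on the ZH11 arrays (log2 fold change -1.31 ± 0.24 SE, limma adjusted p = 0.031). CML18 read 1412 and 2282 on the ila1 arrays, against 4284 and 3949 on the ZH11 arrays (log2 fold change -1.19 ± 0.24 SE, limma adjusted p = 0.0367). In CML14 and CML18, as in CML27 and CML20, array 1 of ila1 was the lower of the pair.

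The other 4 CML falls were smaller than 2-fold. CML16 was bright on all arrays, at 4271 and 5083 on the ila1 arrays, against 8702 and 8417 on the ZH11 arrays (log2 fold change -0.88 ± 0.11 SE, limma adjusted p = 0.0112). CML10 gave 3029 and 3639 on the ila1 arrays, against 6185 and 5888 on the ZH11 arrays (log2 fold change -0.86 ± 0.12 SE, limma adjusted p = 0.0141). CML4 read 931 and 994 in ila1 and 1723 and 1621 in ZH11 (log2 fold change -0.79 ± 0.11 SE, limma adjusted p = 0.015). A second CML4 probe set fell as well (log2 fold change -0.84), and a dimmer one, at 0.19 on the same scale, was not called. CML7 had almost equal ila1 arrays, at 1765 and 1773 on the ila1 arrays, against 2789 and 2986 on the ZH11 arrays (log2 fold change -0.70 ± 0.09 SE, limma adjusted p = 0.0143). The calls of CML27 and CML18 were lost after quantile normalization, and those of CML27 and CML4 with the mean over all probe sets of a gene.

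CML8 and CML3 were the calmodulin-like genes that rose. CML8 had signals of 1916 and 1412 on the ila1 arrays, against 832 and 745 on the ZH11 arrays (log2 fold change 1.05 ± 0.18 SE, limma adjusted p = 0.0253). CML3 read 110.0 and 127 in ila1 and 69 and 58.1 in ZH11 (log2 fold change 0.76 ± 0.14 SE, limma adjusted p = 0.0275). In both genes the lower ila1 array lay above the higher ZH11 array. The nearest CML genes that were not called were CML15, at 2848 and 4327 in ila1 and 5919 and 5682 in ZH11 (log2 fold change -0.72 ± 0.21 SE, limma adjusted p = 0.0809), and CML29, at 1047 and 1265 in ila1 and 1548 and 1624 in ZH11 (log2 fold change -0.46 ± 0.13 SE, limma adjusted p = 0.0839). Their ila1 arrays were below both ZH11 arrays without passing the test. CML1, known as a calmodulin with a lipid-anchored tail (OsCAM61), read 619 and 1208 in ila1 and 1267 and 1293 in ZH11, so 1 ila1 array stood close to ZH11 (log2 fold change -0.56 ± 0.32 SE, limma adjusted p = 0.277). The 12 calmodulin and CML genes not called ranged from -0.80 to 0.42 in log2 fold change.

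**Figure D2:**
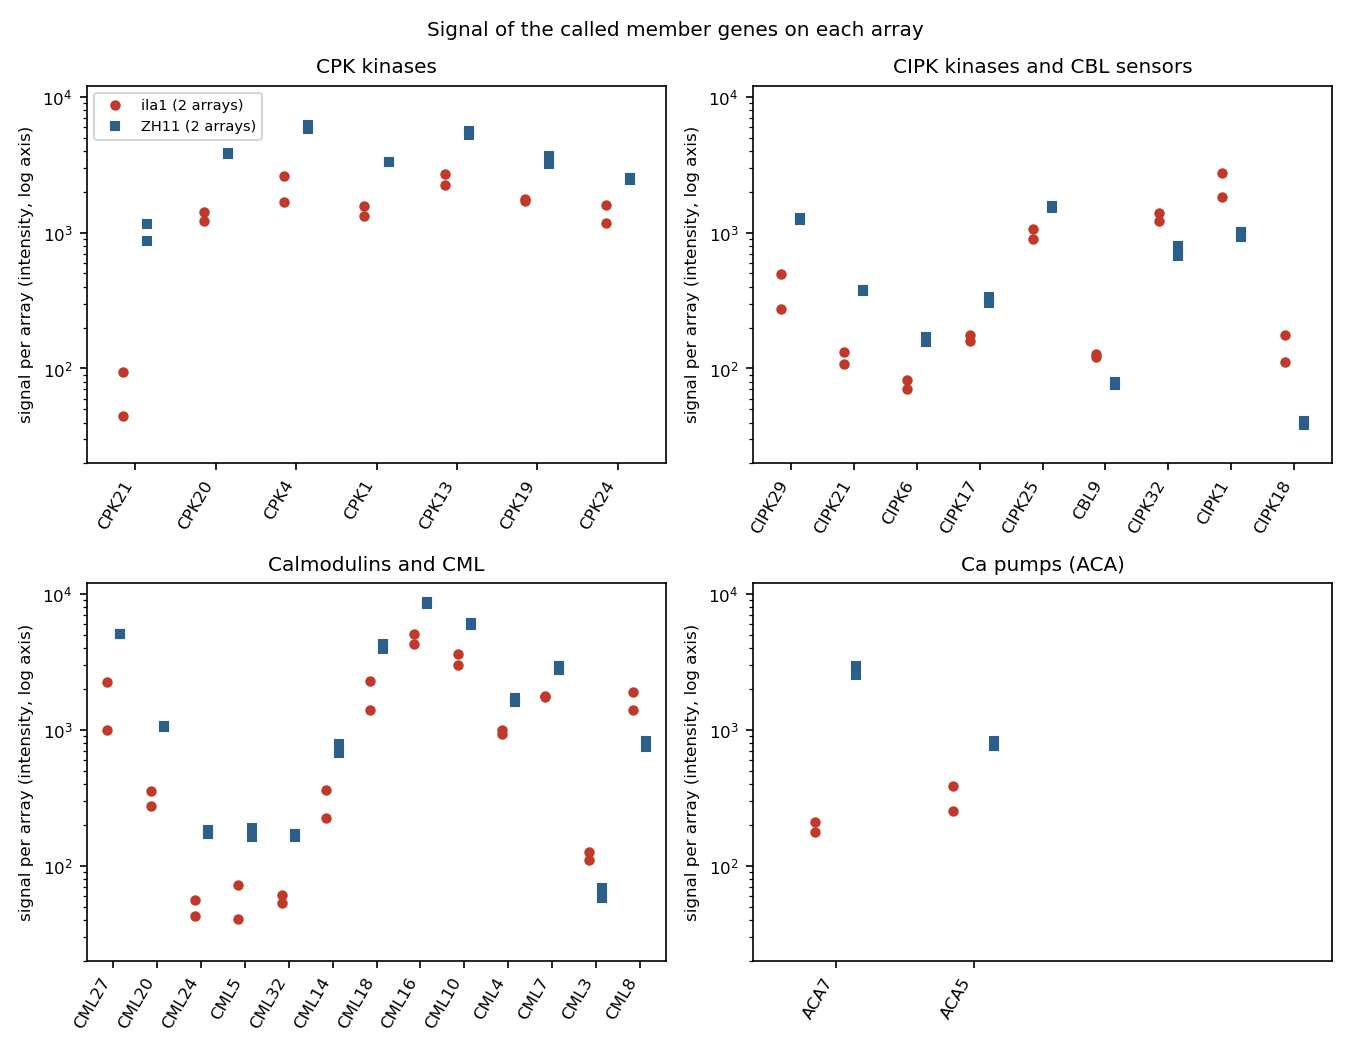
Signal (intensity, log axis) of each called member gene on each array, ila1 as red circles and ZH11 as blue squares, ordered within each panel by fold change. CPK21 and ACA7 show the widest gaps between the genotypes, and the groups do not overlap in any gene shown.

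Calls among the CBL sensors and CIPK kinases went to both sides. Of 29 tested genes 5 fell and 4 rose, and the median was -0.18 in log2 fold change (-0.16 relative to all genes). Quantile normalization gave 4 lower and 7 higher (all genes 10.2% and 11.2%). Scaling to hybridization controls gave 4 and 6 (all genes 9.17% and 12.2%), and median centring gave 5 each (all genes 11.3% and 7.15%). Under the hybridization controls the median turned to 0.035, while that of all genes moved to 0.19. Relative to all genes it stayed at -0.16. Without ila1 replicate 1 limma called 10 lower and 7 higher (all genes 23.1% and 15.9%), without ila1 replicate 2 it called 12 and 8 (all genes 28.5% and 22.4%), and with either ZH11 array left out it called 0 in each direction. On the deposited values the shares of the 29 genes were 17.2% lower and 13.8% higher, beside backgrounds of 12.6% and 5.68%. The share of lower calls was thus near that of all genes.

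CIPK29 and CIPK21 were the CIPK genes with the largest falls. CIPK29 had signals of 272 and 494 on the ila1 arrays, against 1283 and 1244 on the ZH11 arrays (log2 fold change -1.74 ± 0.29 SE, limma adjusted p = 0.0226). Its neighbour in the RefSeq gene table, CIPK2, had a log2 fold change of -0.09 with the groups overlapping. CIPK21 read 132 and 108 on the ila1 arrays, against 373 and 379 on the ZH11 arrays (log2 fold change -1.53 ± 0.14 SE, limma adjusted p = 0.00588). CIPK6 was at 71.2 and 82.3 on the ila1 arrays, against 156 and 169.8 on the ZH11 arrays (log2 fold change -0.95 ± 0.13 SE, limma adjusted p = 0.0144). CIPK17 gave 177 and 159.8 in ila1 and 301 and 334 in ZH11 (log2 fold change -0.86 ± 0.13 SE, limma adjusted p = 0.02). All 4 had both ila1 arrays clearly below ZH11. CIPK25 read 904 and 1063 in ila1 and 1579.9 and 1521 in ZH11 (log2 fold change -0.65 ± 0.13 SE, limma adjusted p = 0.0335), a call lost under quantile normalization, under scaling to hybridization controls and with the replicate number as a block (log2 fold changes -0.42, -0.43 and -0.65).

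CIPK18 showed the largest rise among the members. It was dim in ZH11, with signals of 175 and 112 on the ila1 arrays, against 38.2 and 41 on the ZH11 arrays (log2 fold change 1.49 ± 0.21 SE, limma adjusted p = 0.0161). CIPK1 read 1828 and 2757 on the ila1 arrays, against 1009.9 and 926 on the ZH11 arrays (log2 fold change 1.20 ± 0.22 SE, limma adjusted p = 0.028). CIPK32 had 1218 and 1384 in ila1 and 800.4 and 667 in ZH11 (log2 fold change 0.82 ± 0.15 SE, limma adjusted p = 0.0277). CIPK32 and CML3 are next to each other in the RefSeq gene table, rose by similar log2 values (0.82 and 0.76), and their probe sets were drawn from the same cluster number of the array design, so whether 1 transcript is read by both was not tested. CBL9 was the CBL sensor that rose, at 121 and 127 in ila1 and 79 and 75.2 in ZH11 (log2 fold change 0.59 ± 0.11 SE, limma adjusted p = 0.0308), on a probe set of a type that can cross-hybridise. Its other probe set had a log2 fold change of 0.50 without a call.

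Of the 6 tested CBL genes 1 rose (all genes 5.68%) and limma called 0 lower (all genes 12.6%), with 0 lower at an unadjusted p under 0.05. The 6 genes are too few for a comparison with these shares. CBL4, which in rice activates CIPK24 in sodium export, had signals of 85.7 and 83 on the ila1 arrays, against 51.5 and 60.7 on the ZH11 arrays (log2 fold change 0.48 ± 0.11 SE, limma adjusted p = 0.0547). It passed as higher under each of the 3 other scalings. CIPK24 itself, the rice counterpart of SOS2, read 926 and 725 in ila1 and 787 and 743 in ZH11 and overlapped between the groups (log2 fold change 0.10, 95% interval -0.31 to 0.50). CIPK7 was the CIPK gene nearest to a call among those not called, at 1812 and 1931 in ila1 and 2391 and 2579 in ZH11 (log2 fold change -0.41 ± 0.10 SE, limma adjusted p = 0.0605). Its dimmer probe set, at 759 and 1525 in ila1 and 2217 and 2403 in ZH11, had a larger fall (log2 fold change -1.09) and was not called either. CIPK23, which activates the potassium channel AKT1, had log2 fold changes of -0.24 on its brighter and 0.55 on its dimmer probe set, neither called. CIPK5 read 80.4 and 173 in ila1 and 43.6 and 46.3 in ZH11, higher on both ila1 arrays but far apart between them, and was not called (log2 fold change 1.15 ± 0.33 SE, limma adjusted p = 0.0797). CIPK5 was called higher under scaling to hybridization controls. The 20 genes not called lay between -0.80 and 1.15 in log2 fold change, 9 of them with both ila1 arrays below ZH11 and 5 with both above. Over all 29 tested genes of this subfamily these counts were 14 and 9 (48.3% and 31.0%), beside 35.6% and 32.6% of all genes.

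**Figure D3:**
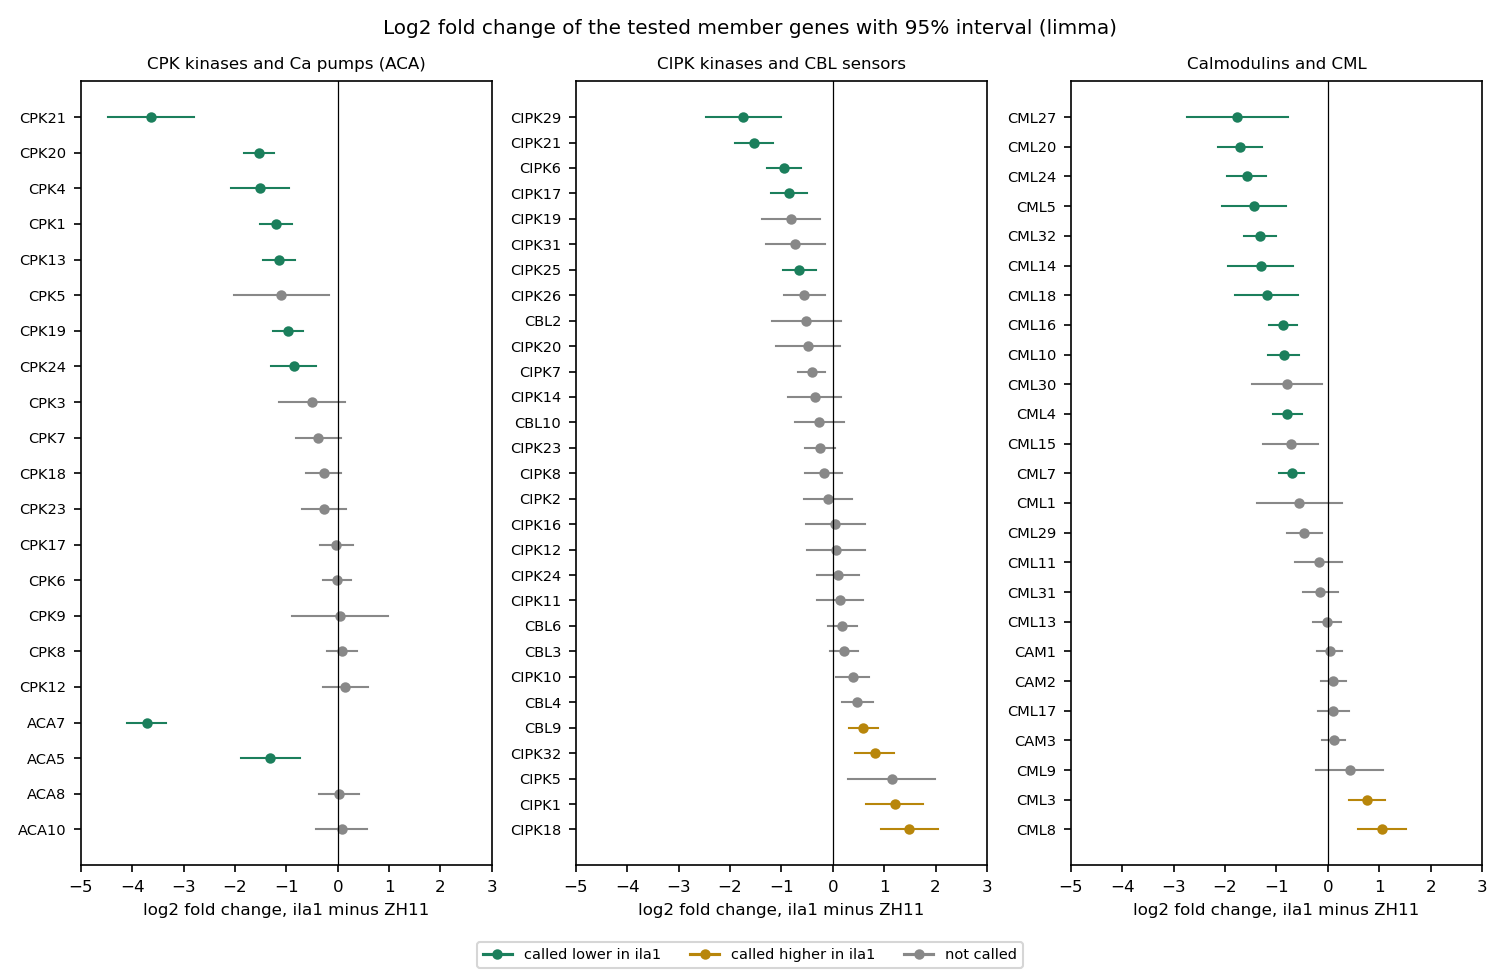
Log2 fold change (ila1 minus ZH11) of each of the 75 tested member genes with its 95% interval from limma, in green where called lower in ila1, in gold where called higher and in grey where not called. ACA7 and CPK21 stand apart at -3.72 and -3.63.

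Calcium-dependent kinases were called lower more often than all genes were. Of 17 tested CPK genes 7 fell (all genes 12.6%), and 10 were not called. Limma called 0 higher (all genes 5.68%), with 0 higher at an unadjusted p under 0.05. The 17 genes are too few for a comparison with the share of higher calls. The median was -0.50 in log2 fold change (-0.48 relative to all genes) and -0.84 without ila1 replicate 1, where 11 CPK genes were called lower and 1 higher, beside 23.1% and 15.9% of all genes. With ila1 replicate 2 left out 9 were lower and 1 higher, beside 28.5% and 22.4% of all genes. When either ZH11 array was left out, no CPK call held.

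CPK21, which in rice has been tied to abscisic acid and salt responses, had the largest fall of the kinases. It read 94.2 and 44.9 on the ila1 arrays, against 872 and 1149 on the ZH11 arrays, a fall of 12.4-fold (log2 fold change -3.63 ± 0.32 SE, limma adjusted p = 0.00535). The ila1 arrays differed from each other, and the higher of them was still far below ZH11. CPK20 read 1213 and 1416 on the ila1 arrays, against 3862 and 3807 on the ZH11 arrays (log2 fold change -1.54 ± 0.11 SE, limma adjusted p = 0.00393). CPK4, a kinase linked in rice to drought tolerance and blast resistance, had signals of 2624 and 1692 on the ila1 arrays, against 6243 and 5806 on the ZH11 arrays (log2 fold change -1.51 ± 0.22 SE, limma adjusted p = 0.0166). CPK1 was at 1316 and 1558 on the ila1 arrays, against 3298 and 3331 on the ZH11 arrays (log2 fold change -1.20 ± 0.12 SE, limma adjusted p = 0.00668). These 4 genes were at least 2-fold lower in every pair of arrays.

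CPK13, also called OsCDPK7 and known to raise cold and salt tolerance when overexpressed in rice, fell on both of its probe sets. The brighter read 2686 and 2243 on the ila1 arrays, against 5199.6 and 5620.1 on the ZH11 arrays (log2 fold change -1.13 ± 0.12 SE, limma adjusted p = 0.00783), and the dimmer had a log2 fold change of -1.20. CPK19 had signals of 1767 and 1707 on the ila1 arrays, against 3179 and 3655 on the ZH11 arrays (log2 fold change -0.97 ± 0.11 SE, limma adjusted p = 0.00949). CPK24, a kinase of the cold response in rice, read 1593 and 1174 in ila1 and 2535 and 2452 in ZH11 (log2 fold change -0.86 ± 0.17 SE, limma adjusted p = 0.0344). CPK24 missed the threshold under quantile normalization (-0.59) and under scaling to hybridization controls (-0.64).

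CPK5 and CPK7 came nearest to a call among the other 10 CPK genes. CPK5 gave 1382 and 647 in ila1 and 2060.2 and 2037 in ZH11, with 1 ila1 array less than 1.5-fold below ZH11 and the other more than 3-fold below (log2 fold change -1.10 ± 0.36 SE, limma adjusted p = 0.104). CPK7 read 768 and 605 in ila1 and 823 and 967 in ZH11 (log2 fold change -0.38 ± 0.17 SE, limma adjusted p = 0.186). CPK18, which in rice phosphorylates the MAP kinase MPK5, read 404 and 349.8 in ila1 and 466 and 450.2 in ZH11 and was not called (log2 fold change -0.27 ± 0.13 SE, limma adjusted p = 0.216). CPK23, first described as the seed kinase SPK, had 115 and 137 in ila1 and 172 and 138 in ZH11 (log2 fold change -0.27). CPK17, CPK6, CPK9, CPK8 and CPK12 overlapped between the groups, at log2 fold changes between -0.03 and 0.15. Of these CPK9 had the widest 95% interval, -0.90 to 0.97.

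The calcium pump ACA7 and the kinase CPK21 had the largest changes of the members, and their order depended on the setting. The log2 fold changes were -3.72 for ACA7 and -3.63 for CPK21 as reported, but -3.82 and -3.92 with a pseudocount of 1, and -3.83 and -4.06 without ila1 replicate 1. ACA7 fell by 13.2-fold, at signals of 209 and 179 on the ila1 arrays, against 2556 and 2942 on the ZH11 arrays (log2 fold change -3.72 ± 0.14 SE, limma adjusted p = 0.0019). The arrays of each genotype agreed closely beside this gap. ACA5, for which the gene table also lists the name OsACA6, read 252 and 387 on the ila1 arrays, against 767 and 835 on the ZH11 arrays (log2 fold change -1.31 ± 0.22 SE, limma adjusted p = 0.0243). Limma called 0 of the 4 tested pump genes higher (0 at an unadjusted p under 0.05), beside 5.68% of all genes. The 4 genes are too few for a comparison with this share. The brightest probe sets of the other pumps did not separate the genotypes. ACA10 had signals of 1466 and 1034 in ila1 and 1126 and 1210.1 in ZH11 (log2 fold change 0.08, 95% interval -0.42 to 0.57). ACA8 read 612 and 554 in ila1 and 629 and 518 in ZH11 (log2 fold change 0.03, 95% interval -0.36 to 0.41), although a dimmer ACA8 probe set rose, at 92.5 and 77.1 in ila1 and 51.2 and 49.4 in ZH11 (log2 fold change 0.60 ± 0.12 SE, limma adjusted p = 0.0359). Without ila1 replicate 1, the log2 fold change was -0.04 for ACA8 and -0.17 for ACA10 on the brighter probe sets, and without ZH11 replicate 2 it was -0.11 for ACA8, none of them called, while without ila1 replicate 2 ACA10 was called higher at 0.32. The ACA7 call held without ZH11 replicate 2 and was lost without ZH11 replicate 1, and the ACA5 call was lost in both cases.

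**Figure D4:**
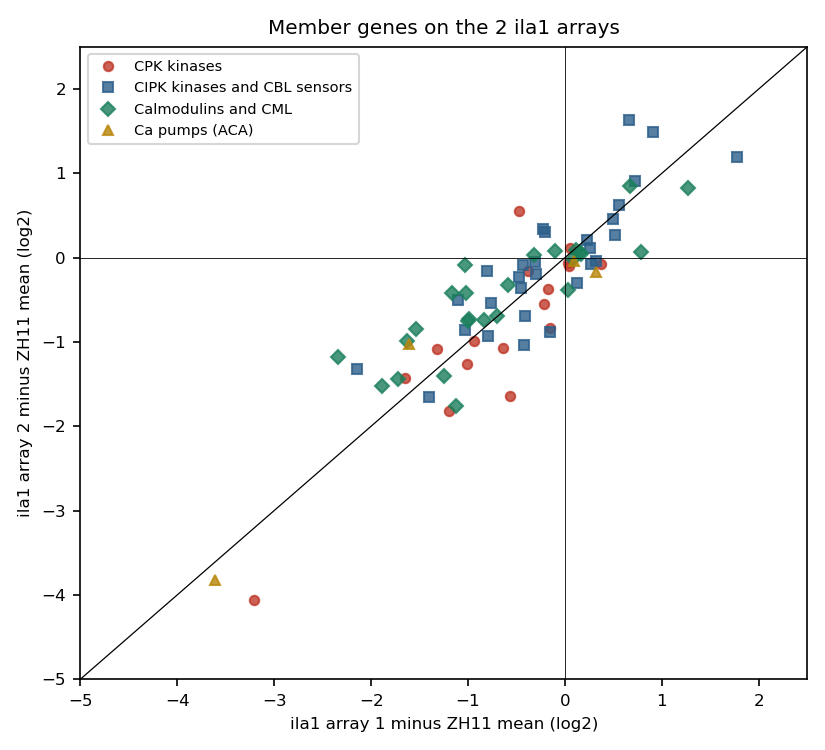
Each point is a tested member gene, placed by its log2 signal on ila1 array 1 (x axis) and ila1 array 2 (y axis), each minus the mean of the ZH11 arrays. Points on the diagonal read alike on both ila1 arrays, points below it read lower on array 2 and points above it lower on array 1. CPK genes lie mostly below the diagonal (12 of 17) and calmodulin-like genes mostly above it (16 of 25).

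The ila1 arrays parted in both directions. Of 17 CPK genes 12 read lower on array 2 of ila1, and of 25 calmodulin and CML genes 16 read lower on array 1, while 47.1% of all tested genes read lower on array 1. An absolute log2 difference over 0.5 between the ila1 arrays was found for 24 of 75 members (32.0%), against 17.7% of all genes, and between the ZH11 arrays for 0 members, against 1.85% of all genes. The cause of this spread was not tested. Of 13 member genes with more than 1 tested probe set, none was called lower on one and higher on another. Only CML4, CML5 and CPK13 had 2 called probe sets, so the others could not differ in this way. Log2 fold changes took both signs in CIPK2 (-0.28 to 0.25), CIPK23 (-0.24 to 0.55) and CML4 (-0.84 to 0.19). The tested members include 5 genes read by probe sets that can match several transcripts (CPK5, CPK12, CPK18, CIPK11 and CML5) and 4 by probe sets that can cross-hybridise (CIPK2, CIPK16, CBL9 and CML13), and their values are less certain for that reason.

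Other genes of calcium transport and response were taken from a list of gene symbols. Of its 39 genes 33 were tested, 6 fell and 2 rose, and the median was -0.05 in log2 fold change, beside the backgrounds of 12.6% and 5.68%. Quantile normalization gave 4 lower and 4 higher (all genes 10.2% and 11.2%). Scaling to hybridization controls gave 3 and 5 (all genes 9.17% and 12.2%). The replicate number as a block gave 7 and 1 (all genes 1885 and 807 of 15633). Without ila1 replicate 1 the counts were 8 and 7 (all genes 23.1% and 15.9%), without ila1 replicate 2 they were 13 and 6 (all genes 28.5% and 22.4%), and with either ZH11 array left out limma called 0 in each direction.

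Exchangers showed 1 gene on each side. NCL1, a gene of the sodium-calcium exchanger-like family, read 948 and 689 on the ila1 arrays, against 3343 and 3912 on the ZH11 arrays on a probe set that can cross-hybridise (log2 fold change -2.14 ± 0.19 SE, limma adjusted p = 0.00523). MHX1, a magnesium-proton exchanger, read 1027 and 924 on the ila1 arrays, against 362 and 256 on the ZH11 arrays (log2 fold change 1.63 ± 0.20 SE, limma adjusted p = 0.0108). The groups were more than 2-fold apart in both, and the 4 tested CAX calcium-proton exchangers were not called (log2 fold changes between -0.24 and 0.24). Among potassium carriers and the channel AKT1, some of which CIPK kinases control, 5 of 21 fell and 1 rose, beside 12.6% and 5.68% of all genes. HAK7 had signals of 1582 and 1311 on the ila1 arrays, against 4322 and 4475 on the ZH11 arrays (log2 fold change -1.60 ± 0.12 SE, limma adjusted p = 0.00419). HAK5, a potassium uptake carrier, read 6401 and 6139 in ila1 and 8709 and 8987 in ZH11 (log2 fold change -0.50 ± 0.07 SE, limma adjusted p = 0.016), a call lost under scaling to hybridization controls and with probe sets averaged per gene. AKT1, the channel that CIPK23 opens, was not called (log2 fold change -0.22 ± 0.12 SE, limma adjusted p = 0.268), on a probe set that can cross-hybridise.

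The vacuolar two-pore channel TPC1 read 799 and 1155 on the ila1 arrays, against 1641 and 1740.1 on the ZH11 arrays and missed the threshold (log2 fold change -0.80 ± 0.20 SE, limma adjusted p = 0.0579), passing only with the replicate number as a block among the other scalings, filters, pseudocounts and models. The TPC1 probe set is of a type that can match several transcripts. The calcium-binding protein CRO1 had a log2 fold change of 0.21 and passed as higher under quantile normalization (0.42) and hybridization-control scaling (0.43). The NADPH oxidase rbohB, one of a family of enzymes with EF-hands that make reactive oxygen, overlapped between the groups, at 3057 and 2849 in ila1 and 2859 and 2729 in ZH11 (log2 fold change 0.08). CCAMK, the calcium- and calmodulin-dependent kinase of root symbiosis, had 401 and 389 in ila1 and 383 and 390.5 in ZH11 (log2 fold change 0.03). The pattern for CPK-related kinases also matched CRK10 and CRK6, symbols that in plants are shared with cysteine-rich receptor-like kinases. CRK10 had a log2 fold change of 0.63 without a call, and with a call as higher when scaled to hybridization controls (0.83), and CRK6 had one of -0.13, turning to 0.038 under quantile normalization and 0.089 with the controls. No calmodulin-binding factor of the list was found in the gene table.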

How the data were processed

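The authors deposited 1 linear intensity per probe set and array. TRIzol was used for the RNA and Affymetrix's usual protocol for the labelled cRNA, per the labels. How the intensities were computed and scaled is not given in the sources used. The 123 control probe sets were left out, 16 was added, log2 was taken, and the dimmest 40% of probe sets by mean log2 value stayed untested. The genotypes were tested in limma 3.58.1 under R 4.3.3 (lmFit, eBayes with a trend, two-sided, Benjamini-Hochberg over 34355 probe sets), with genotype as the only term and 2 residual degrees of freedom, tested on simulated data. Background shares use the 15633 genes tested. The 95% intervals use the moderated spread. The number of arrays limits the precision.

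Names come from the platform annotation and RefSeq (assembly ASM3414082v1), with 22436 probe sets paired with 1 gene, 95 with several and the rest with none, and all 17905 genes found in the RefSeq table. A gene with several family names is called by its symbol or an unshared name. Members and lists were chosen with earlier results of these data known. Genes with values are those called on any probe set, in each subfamily the 2 uncalled genes with the smallest p, and in each list up to 2. LG1, LG2, CAM1 to CAM3, CML1, CIPK2, CIPK24, CIPK23, CIPK5, CPK18, CPK23, CPK17, CPK6, CPK9, CPK8, CPK12, AKT1 and CCAMK were added after values were seen. Other scalings, pseudocounts, filters, a prior without trend, a replicate block and leaving out each array were tried. Python 3.11.15, pandas 2.3.3, scipy 1.17.1 and matplotlib 3.10.9 were also used.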

Additional observations from a re-analysis of the deposited data

How the results depend on the processing

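With pseudocounts of 1 or 64, no filter on low values or a prior without a trend, all 31 called members kept their call, as they did under median centring. The calls of CML27, CML18, CPK24 and CIPK25 were lost after quantile normalization, of CPK24 and CIPK25 with arrays scaled to hybridization controls, of CML27 and CML4 with the mean over all probe sets of a gene, and of CIPK18, then not tested, with 60% of probe sets left out. Among all genes, calls higher and median were 1753 and 0.13 after quantile normalization and 1905 and 0.19 with arrays scaled to hybridization controls, and for members the medians were -0.19 and -0.16. CIPK-CBL genes had 7 calls higher after quantile normalization and a median of 0.035 with the controls. The CPK median was -0.28 with the controls, -0.33 with no filter, -0.86 with 60% left out and -0.68 with the mean of probe sets. The calmodulin-like median was -0.45 after quantile normalization, -0.48 with the controls and -0.54 with the mean of probe sets, and the pump median -0.43 with the controls and -0.36 with no filter. Of the other calcium genes, 4 were higher after quantile normalization, and with the controls 3 were lower and 5 higher at a median of 0.15. CRK6 turned to 0.038 and 0.089 in these 2 settings. The cause was not tested.

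Samples of the 2 genotypes share only a number: same-numbered arrays deviated together at a correlation of 0.10, and the labels state no pairing. With a replicate block 1885 genes were lower and 807 higher, 30 of 31 member calls held (CIPK25 lost), and 1 of the other calcium genes was higher.

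With 1 array left out, the lone array is assumed to vary like the other group. Calls over all genes then ranged from 10 to 4459 lower and from 0 to 3508 higher, with medians from -0.02 to -0.01. Members ranged from 0 to 39 lower and 0 to 13 higher, with medians from -0.48 to -0.32. By subfamily the ranges were 0 to 11 lower and 0 to 1 higher for CPK (median -0.84 to -0.45), 0 to 12 lower and 0 to 8 higher for CIPK-CBL (median -0.23 to -0.08), 0 to 16 lower and 0 to 3 higher for calmodulin-like genes (median -0.83 to -0.42) and 0 to 2 lower and 0 to 1 higher for pumps (median -0.75 to -0.60). The other calcium genes ranged from 0 to 13 lower and 0 to 7 higher, with medians from -0.22 to -0.0067. ACA8 ranged from -0.11 (without ZH11 replicate 2) to 0.16 and was also below 0, at -0.04, without ila1 replicate 1. ACA10 ranged from -0.17 (without ila1 replicate 1) to 0.32 (without ila1 replicate 2, called higher). Fewer calls without a ZH11 array follow from the fit's own construction, which then takes the spread from the ila1 pair.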
